A study of Mus musculus with 8 samples.

Results

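Ubiquitin-conjugating enzymes (E2 enzymes) are the middle step of protein ubiquitylation, and their messages were followed in mouse germinal vesicle (GV) oocytes, immature oocytes whose nucleus is still intact. The members are all probe sets of a single-colour Affymetrix mouse array that the platform annotation assigns to exactly 1 gene whose symbol is Ube2 followed by a small letter. The rule used no measured value. It gave 81 of the 45101 probe sets on the array, which stand for 33 of the 18193 genes with a symbol of their own there. Ube2cbp and Ube2d-ps carry the name without being E2 enzymes: the RefSeq table lists the ubiquitin ligase name Ube3d as a synonym of Ube2cbp and gives Ube2d-ps the biotype of a long noncoding RNA. The E2 gene Ube2l3 was left out because each of its 4 probe sets is shared with other symbols, and Ube2m is not analysed here.

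Total RNA came from GV oocytes held for 48 h in milrinone (4 samples) and from GV oocytes that were not treated (4 samples). Milrinone inhibits the phosphodiesterase that lowers cAMP in the oocyte and so keeps it arrested at the GV stage. No label gives oocytes cultured without the drug, so milrinone, culture and elapsed time cannot be told apart, and strain, age and the number of oocytes or animals per sample are not given in the labels. Whether replicates were separate collections is not in the labels, so a p-value reflects how these samples vary, and that variation may be technical. Each array received 15 µg of biotinylated cRNA, which makes every level relative to the other RNA of its sample.

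In ubiquitylation an E1 enzyme activates ubiquitin, an E2 enzyme takes it over on a cysteine, and an E3 ligase brings the loaded E2 to the substrate. The E2 largely sets which kind of ubiquitin chain is built, and some E2 enzymes carry related modifiers such as NEDD8 or ISG15 instead. In the oocyte, ubiquitin chains on cyclin B made with the anaphase-promoting complex (APC/C) keep the GV arrest and later drive the exit from meiosis, and E2 enzymes of the Rad6 kind modify chromatin.

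The authors deposited 1 intensity per probe set and array on a linear scale, and left some cells of the table empty. The word listed is used of a probe set on any array where it has a value. No upper limit on the signal follows from an empty cell. An intensity depends on the probes as well as on the RNA, so levels are compared between samples and not between genes. Differences were computed on log2(intensity + 16), which understates changes of dim probe sets, and log2 differences are given as milrinone minus untreated throughout. The test took in the 16288 probe sets of the whole array that were listed on 3 or 4 arrays of both groups. The arrays listed 18605 to 19448 probe sets in milrinone and 18888 to 23269 in untreated samples, the most on untreated 1, whose median correlation with the other arrays was 0.930 against 0.966 to 0.980 for the other 7. The 13 probe sets of 11 oocyte markers such as Gdf9 and Zp3 were listed on all 8 arrays, and their summed intensity ran from 129189 to 139167 in milrinone and from 126892 to 149635 in untreated samples. Markers of cumulus and granulosa cells, which surround the oocyte, were listed for 8 to 14 of 21 probe sets in milrinone and for 14 to 18 in untreated samples, with sums of 2540 to 3367 against 14074 to 50981, the highest on untreated 1. Steroidogenic markers were listed for 1 or 2 of 8 probe sets, with sums of 181 to 435, in milrinone, and for 5 to 8, with sums of 3513 to 34805, in untreated samples. In milrinone samples Star and Cyp17a1 had no listed value and the Inha probe set was empty on 2 of 4 arrays, and Amh was listed on no array. Not every marker went this way. Cyp11a1 had 181, 212, 226 and 212 in milrinone samples, against 127, 212 and 169 on untreated 1, 2 and 4, with probe set 1439947_at. That difference was 0.29 (limma adjusted p = 0.603), while Cyp11a1 probe set 1448804_at was listed in untreated samples only. Has2 was listed on milrinone 2 and 4 and on untreated 2 and 3 with probe set 1418678_at. Blood, stromal and endothelial markers were listed for 3 or 4 of 13 probe sets in milrinone and for 7 to 9 in untreated samples, with sums of 569 to 734 in milrinone and 1339 to 7774 in untreated samples. These sums do not speak for each member. Col1a2 and Lyz2 had no listed value in milrinone samples. The 3 tested probe sets, of Cd68 and of the endothelial markers Kdr and Tek, differed by -0.34, -0.15 and 0.12, and 0 passed (limma). In such bulk samples fewer cells of a type and less RNA per cell cannot be told apart.

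Messages of most E2 genes were listed in every sample, and none was detected to change. Of the 33 genes, 30 had at least 1 probe set listed on all 8 arrays, and 56 of the 81 probe sets could be tested, 53 of them listed on all 8 arrays. These counts include Ube2cbp and Ube2d-ps, which are not E2 enzymes, with 1 tested probe set each. None of the 56 passed (limma, Benjamini-Hochberg adjusted over 16288 probe sets, threshold 0.05), where 0.117% of all tested probe sets were called, all 19 of them lower in milrinone. The adjusted p-values of the 56 ran from 0.460 to 0.991. At an unadjusted p under 0.05 there were 5, 3 higher and 2 lower in milrinone, against 9.63% of all tested probe sets. These 5 were a pair of Ube2k probe sets and one each of Ube2cbp, Ube2v1 and Ube2r2.

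With the deposited scaling most differences of the family were small. The median log2 difference of the 56 probe sets was 0.02, with the middle of the distribution between -0.14 and 0.12 (quartiles), beside a median of 0.06 and quartiles of -0.09 and 0.19 for all tested probe sets. A difference was positive for 30 and negative for 26 of them. This split follows the scaling: quantile normalization gave 9 positive and 47 negative, with a median of -0.12 beside -0.13 for all tested probe sets. Centring on ribosomal protein genes gave 49 and 7, with a median of 0.21 beside 0.25, and median centring gave 27 and 29, with -0.01 beside 0.03. With the deposited scaling the difference lay within 0.2 of zero in 44 of 56 probe sets, or 78.6%, against 60.7% of all tested probe sets. Ribosomal protein centring put the E2 median itself beyond that bound, at 0.21. The 95% interval lay wholly within 1 log2 unit of zero for 53 of 56, or 94.6%, against 90.4% of all. The exceptions were Ube2r2, Ube2d-ps and 1 probe set of Ube2v1. The median standard error was 0.15 for the E2 probe sets and 0.17 for all.

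**Figure D1:**
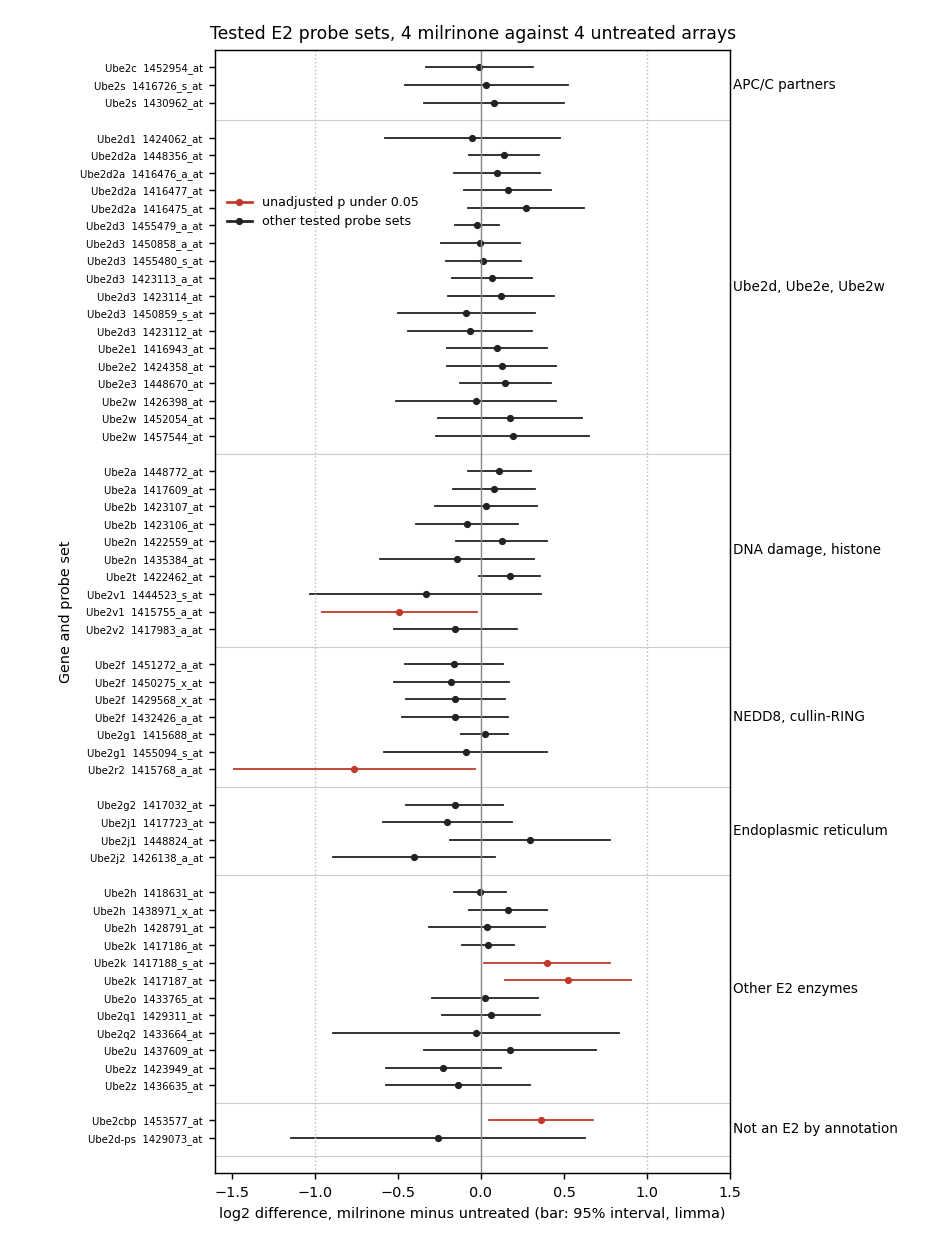
Log2 difference (x axis, milrinone minus untreated, with the 95% interval as a bar) for each of the 56 tested probe sets (y axis), grouped by the role of the gene. The 5 probe sets with an unadjusted p under 0.05 are red, none passed after adjustment, and the dotted lines mark 1 log2 unit, which 3 intervals cross.

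**Figure D2:**
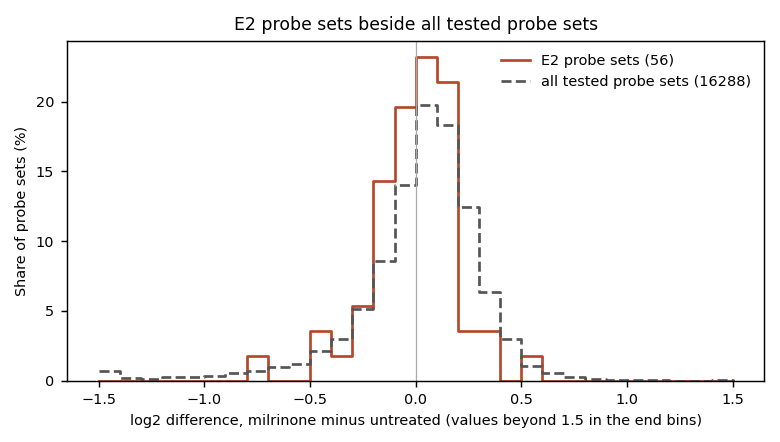
Share of probe sets (y axis, percent) by log2 difference (x axis, milrinone minus untreated) for the 56 E2 probe sets (solid) and all 16288 tested probe sets (dashed). The E2 curve is the narrower one with the deposited scaling, with 78.6% of its probe sets within 0.2 of zero against 60.7%.

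The milrinone arrays resembled each other more closely than the untreated arrays did. Of the 53 E2 probe sets listed on all 8 arrays, 43 had the smaller SD in milrinone, or 81.1%, against 77.1% of the 14391 such probe sets on the whole array. The median SD on the log2 scale was 0.11 in milrinone and 0.22 in untreated samples for the E2 probe sets, and 0.16 and 0.27 for all. Untreated 1 had the lowest value of the 8 arrays for 26 of the 53 E2 probe sets, or 49.1%, against 39.6% of all. It had the highest for 8, or 15.1%, against 15.9% of all. Untreated 4 had the lowest for 14, or 26.4%, against 22.3% of all, and the highest for 9, or 17.0%, against 17.2%.

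No difference was detected for the E2 partners of the APC/C. Ube2c encodes the E2 that starts ubiquitin chains on APC/C substrates such as cyclin B. Its only probe set had 1172, 1336, 1077 and 1129 in milrinone samples, against 1156, 1471, 1159 and 997 in untreated samples. The milrinone values lay inside the untreated range, and the difference was -0.01 (95% interval -0.33 to 0.31, limma adjusted p = 0.980). Ube2s extends the chains that Ube2c has begun. Its probe set 1416726_s_at had 2530, 2574, 4164 and 3535 in milrinone samples, against 2023, 3416, 3184 and 3983 in untreated samples. The highest value was on milrinone 3 and the lowest on untreated 1, and the groups overlapped, with a difference of 0.03 (95% interval -0.46 to 0.52, limma adjusted p = 0.966). A dim second probe set of Ube2s, between 28.8 and 46.6 on the 6 arrays that listed it, differed by 0.08. Whether 1416726_s_at and other probe sets with the suffix _s_at also bind other messages was not tested.

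The broadly acting E2 enzymes of the Ube2d and Ube2e kind, which work with many RING and HECT ligases, were grouped with Ube2w. This group had 18 tested probe sets from 7 genes, with 12 positive and 6 negative differences, a median of 0.10 and a range of -0.09 to 0.27. Quantile normalization turned this split to 3 positive and 15 negative, median centring gave 11 and 7, and ribosomal protein centring gave 18 and 0. Of these 0 passed (limma, 0 at an unadjusted p under 0.05). All 7 probe sets of Ube2d3 were listed on all 8 arrays. Probe set 1455479_a_at of Ube2d3 had 12691, 12128, 12380 and 12482 in milrinone samples, against 11617, 12326, 13100 and 13467 in untreated samples. The 4 milrinone values lay inside the untreated range, and the difference was -0.02 (95% interval -0.15 to 0.11, limma adjusted p = 0.909), the narrowest interval in the family. The other 6 probe sets of Ube2d3 differed by -0.09 to 0.12, so 3 of the 7 were positive and 4 negative.

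Ube2d2a, a close relative of Ube2d3, had 4 tested probe sets, each with a positive difference, of 0.09 to 0.27. Probe set 1448356_at had 11035, 11230, 11101 and 10667 in milrinone samples, against 8957, 10447, 12090 and 8819 in untreated samples. Untreated 3 was above every milrinone sample and the other untreated samples were below them all, and the difference was 0.14 (95% interval -0.07 to 0.35, limma adjusted p = 0.613). Probe set 1416475_at had 146, 185, 176 and 174 in milrinone samples, against 109, 157, 157 and 133 in untreated samples. Here milrinone 1 lay below untreated 2 and 3, and the difference was 0.27 (95% interval -0.08 to 0.62, limma adjusted p = 0.566). Ube2d messages are similar in sequence, and cross-hybridization between Ube2d2a and Ube2d3 was not tested. The remaining probe set of Ube2d2a was listed on 2 arrays only.

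Ube2e3, an E2 of the same broad kind, had 1653, 2024, 1801 and 1920 in milrinone samples, against 1593, 1860, 1808 and 1430 in untreated samples. Untreated 1 and 4 were the lowest of the 8 arrays, and the difference was 0.15 (95% interval -0.13 to 0.42, limma adjusted p = 0.675). Ube2e1 differed by 0.10 and Ube2e2 by 0.12, and Ube2d1 by -0.05. Ube2w, which attaches ubiquitin to the amino terminus of proteins, had 3 tested probe sets with differences of -0.03, 0.17 and 0.19. Ube2d2b was listed on no array.

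Ube2a and Ube2b are the mouse counterparts of yeast Rad6, which ubiquitylates histone H2B with the ligases Rnf20 and Rnf40 and the sliding clamp PCNA with Rad18. Mouse Ube2a is needed maternally for early cleavage, and Ube2b for sperm formation. Ube2a had 4067, 4295, 4161 and 4507 in milrinone samples, against 3634, 4023, 4336 and 3790 in untreated samples with probe set 1448772_at. Milrinone 4 was the highest and untreated 1 the lowest, the groups overlapped, and the difference was 0.11 (95% interval -0.08 to 0.30, limma adjusted p = 0.649). The other Ube2a probe set differed by 0.08. Ube2b had 2006, 2403, 2019 and 1828 in milrinone samples, against 1632, 1954, 2175 and 2351 in untreated samples with probe set 1423107_at. Milrinone 2 was the highest and untreated 1 the lowest, and the difference was 0.03 (95% interval -0.28 to 0.34, limma adjusted p = 0.947), while the second tested probe set differed by -0.08. The remaining pair of Ube2b probe sets was listed on no array.

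Ube2t loads the ubiquitin that the Fanconi ligase subunit Fancl places on DNA crosslink repair proteins. It had 6332, 6279, 5627 and 5719 in milrinone samples, against 4777, 5701, 5510 and 5284 in untreated samples. The milrinone values were mostly the higher ones, but untreated 2 lay above milrinone 3, so the groups overlapped. The difference was 0.17 (95% interval -0.01 to 0.36, limma adjusted p = 0.520), and without untreated 1 it was 0.12.

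Ube2n builds signalling and repair chains only together with a catalytically inactive partner, Ube2v1 or Ube2v2. Ube2n had 2459, 2877, 2484 and 2588 in milrinone samples, against 2060, 2449, 2895 and 2202 in untreated samples with probe set 1422559_at. The groups overlapped, with the highest and the lowest value both among untreated samples, and the difference was 0.12 (95% interval -0.15 to 0.40, limma adjusted p = 0.726); a dimmer probe set differed by -0.14. The single tested probe set of Ube2v2 differed by -0.15.

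Both probe sets of Ube2v1 had negative differences, and neither passed. Probe set 1415755_a_at had 439, 414, 386 and 436 in milrinone samples 1 to 4, against 838, 528 and 474 in untreated samples 1 to 3, and was empty on untreated 4, which the fit left out for this probe set. All listed milrinone values lay below all listed untreated values, as for 2.74% of all tested probe sets, and the difference was -0.49 (95% interval -0.96 to -0.03, limma adjusted p = 0.508). Probe set 1444523_s_at, listed on all 8 arrays, had 611, 546, 527 and 535 in milrinone samples, against 1274, 762, 721 and 344 in untreated samples. On this probe set untreated 4 was the lowest of all arrays, so the groups overlapped, and the difference was -0.33 (95% interval -1.03 to 0.36, limma adjusted p = 0.705). This difference was -0.05 without untreated 1 (limma adjusted p = 0.960) and -0.67 without untreated 4 (limma adjusted p = 0.274). Both probe sets were highest on untreated 1, the array with the highest granulosa and steroidogenic marker sums, and the part of those cells in the difference was not tested.

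The E2 enzymes that serve cullin ligases were measured by 7 tested probe sets of 3 genes, 1 with a positive and 6 with a negative difference, where 38% of all tested probe sets were negative. Of the 6 negative ones 4 belong to Ube2f. Ribosomal protein centring turned the split to 6 positive and 1 negative, and quantile normalization and median centring each gave 0 positive and 7 negative. Ube2r2 is a relative of Cdc34, which extends ubiquitin chains with cullin-RING ligases. Its probe set 1415768_a_at had 123, 176, 153 and 193 in milrinone samples, against 585, 277, 241 and 155 in untreated samples. Untreated 1 stood far above every other array, and untreated 4 lay among the milrinone samples. The difference was -0.76 (95% interval -1.49 to -0.03, limma adjusted p = 0.509), the most negative of the family. Without untreated 1 it was -0.42 with an adjusted p of 0.642 (limma), and without untreated 4 it was -1.03 with an adjusted p of 0.268 (limma). Untreated 1 also had the highest marker sums of the follicle cells, whose part in this difference was not tested.

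Ube2g1, which elongates chains with cullin ligases, had 12692, 12520, 12900 and 12778 in milrinone samples, against 11287, 12464, 13714 and 12787 in untreated samples with probe set 1415688_at. The milrinone values were tightly grouped inside the untreated range, and the difference was 0.02 (95% interval -0.12 to 0.16, limma adjusted p = 0.918). A second probe set was uneven within the milrinone group, with 1704 and 1529 on milrinone 1 and 2 and 2782 and 3020 on milrinone 3 and 4, against 1858 to 2591 in untreated samples, and differed by -0.09. Ube2f, an E2 for the ubiquitin-like modifier NEDD8 that switches cullins on, had 4 tested probe sets whose differences were -0.15, -0.16, -0.16 and -0.18. With ribosomal protein centring all 4 were positive, at 0.010 to 0.035. Among the 14 genes with several tested probe sets these were the most alike, but none passed, with adjusted p-values (limma) from 0.663 to 0.697. The suffix of the tested 1450275_x_at and 1429568_x_at marks probes that may also bind other messages. The untested Ube2f probe sets were listed on no array.

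Ube2j1, Ube2j2 and Ube2g2 act at the endoplasmic reticulum, where they mark misfolded proteins for degradation. Ube2j2 had 468, 504, 570 and 700 in milrinone samples, against 926, 982, 587 and 553 in untreated samples. Untreated 1 and 2 stood above all other arrays, whereas untreated 3 and 4 lay among the milrinone samples, and the difference was -0.40 (95% interval -0.89 to 0.08, limma adjusted p = 0.554). It was -0.30 without untreated 1 (limma adjusted p = 0.728), -0.27 without untreated 2 (limma adjusted p = 0.643) and -0.54 without untreated 4 (limma adjusted p = 0.347).

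The probe sets of Ube2j1 pointed in opposite directions, with the widest disagreement of any gene. Probe set 1448824_at had 631, 593, 493 and 456 in milrinone samples, against 310, 367, 558 and 568 in untreated samples, a difference of 0.29 (95% interval -0.19 to 0.78, limma adjusted p = 0.634). Probe set 1417723_at had 485, 362, 544 and 535 in milrinone samples, against 626, 508, 469 and 613 in untreated samples, a difference of -0.20 (95% interval -0.59 to 0.18, limma adjusted p = 0.680). Untreated 1 was the lowest of all arrays on 1448824_at and the highest on 1417723_at, and the groups overlapped on both. Without untreated 1 the difference of 1448824_at was 0.14, and without milrinone 2 that of 1417723_at was -0.08. Ube2g2 differed by -0.16.

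The product of Ube2k builds the chains that mark proteins for the proteasome and was found as a partner of huntingtin. Probe set 1417187_at had 253, 247, 227 and 234 in milrinone samples, against 122, 160, 161 and 215 in untreated samples. Every milrinone value lay above every untreated value, as for 5.06% of all tested probe sets, and the difference was 0.53 (95% interval 0.15 to 0.91, limma adjusted p = 0.460), the smallest adjusted p of the family. Probe set 1417188_s_at had 932, 851, 957 and 948 in milrinone samples, against 491, 800, 773 and 767 in untreated samples. Again the groups did not overlap, untreated 1 was far below the rest, and the difference was 0.40 (95% interval 0.02 to 0.78, limma adjusted p = 0.508). Probe set 1417186_at had 10454, 10948, 10583 and 10204 in milrinone samples, against 9115, 10420, 10429 and 11125 in untreated samples. There the groups overlapped, untreated 4 was the highest array, and the difference was 0.04 (95% interval -0.11 to 0.20, limma adjusted p = 0.844). The annotation ties all 3 to the same sequence record, and where their probes lie on the message is not given in the sources used here.

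The 2 nonoverlapping Ube2k probe sets and the one of Ube2v1 were the only tested members whose listed values did not overlap, 3 of 56 beside 7.80% of all tested probe sets. Leaving out untreated 1 took the difference of Ube2k to 0.41 for probe set 1417187_at (limma adjusted p = 0.537) and to 0.24 for 1417188_s_at (adjusted p = 0.635), and to -0.01 for 1417186_at. Across the 18 alternatives fitted over the whole array, 1417187_at stayed between 0.29 and 0.72 and its limma adjusted p between 0.127 and 0.781, so its sign held and it passed in none.

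**Figure D3:**
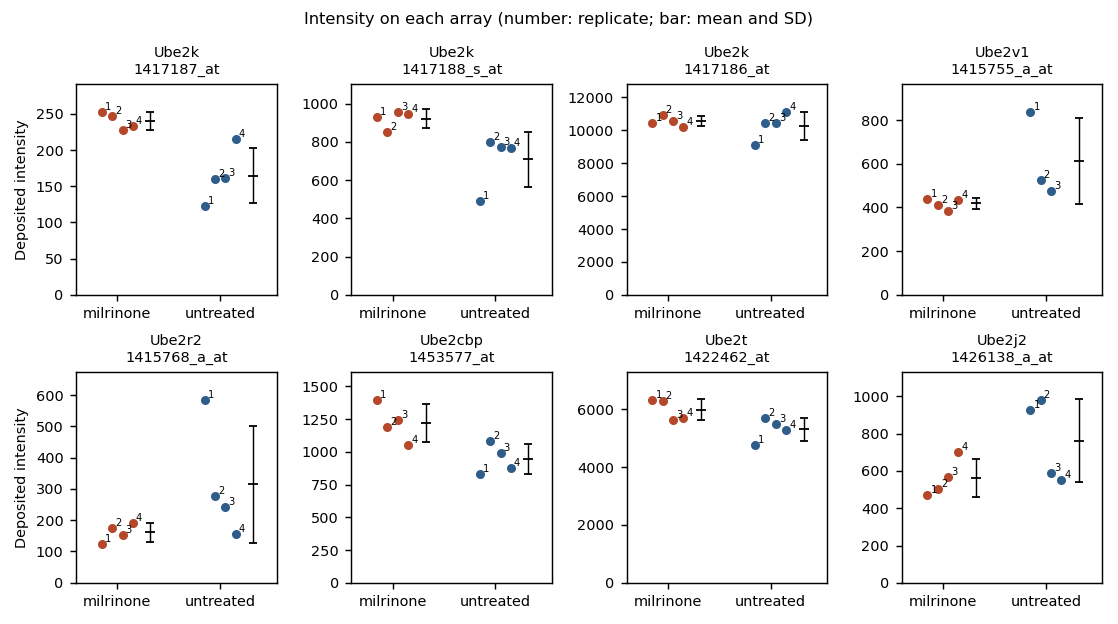
Deposited intensity (y axis, from 0) on each milrinone (left) and untreated (right) array for 8 probe sets of Ube2k, Ube2v1, Ube2r2, Ube2cbp, Ube2t and Ube2j2, numbered by replicate, with mean and SD as a bar. Milrinone and untreated points are apart for 1417187_at and 1417188_s_at of Ube2k and for Ube2v1, while untreated 1 stands far from the other untreated arrays for Ube2r2 and for 1417188_s_at.

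**Figure D4:**
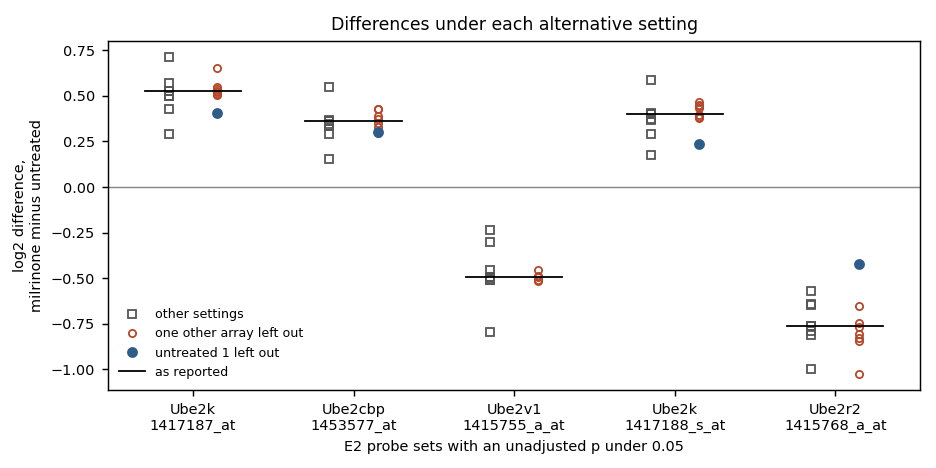
Log2 difference (y axis, milrinone minus untreated) of the 5 probe sets with an unadjusted p under 0.05, as reported (line), with untreated 1 left out (filled circles), with 1 other array left out (open circles) and under the other settings (squares). All points of a probe set stay on their side of zero, and leaving out untreated 1 takes Ube2r2 to -0.42. Ube2v1 has no filled circle because it could not be tested without that array.

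Ube2h, the E2 of the ubiquitin ligase complex that contains Maea, had 7638, 7408, 7761 and 7808 in milrinone samples, against 6993, 7934, 7623 and 8250 in untreated samples with probe set 1418631_at. The milrinone values lay within the untreated range and the difference was -0.01 (95% interval -0.16 to 0.15, limma adjusted p = 0.977). With probe set 1438971_x_at Ube2h had 3338, 3122, 3544 and 3187 in milrinone samples, against 3248, 2846, 3191 and 2538 in untreated samples. Untreated 1 and 3 lay among the milrinone samples, and the difference was 0.16 (95% interval -0.07 to 0.40, limma adjusted p = 0.597). The suffix of 1438971_x_at marks probes that may also bind other messages, and the third tested probe set of Ube2h differed by 0.04.

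Ube2z, which transfers the ubiquitin-like modifier FAT10 after activation by Uba6, had 840, 727, 812 and 846 in milrinone samples, against 1073, 1149, 826 and 779 in untreated samples. Untreated 1 and 2 were the highest of the 8 arrays and untreated 3 and 4 lay among the milrinone samples, with a difference of -0.23 (95% interval -0.57 to 0.12, limma adjusted p = 0.614). Without untreated 2 this difference was -0.13, and with ribosomal protein centring it was -0.04. A second probe set of Ube2z differed by -0.14. Ube2o, a large enzyme that combines E2 and E3 activity, differed by 0.03. Ube2q1, Ube2q2 and Ube2u differed by 0.06, -0.03 and 0.17, and the interval of Ube2q2 was wide, from -0.89 to 0.83. Ube2l6, the E2 for the interferon-induced modifier ISG15, and Ube2ql1 were listed on no array.

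Among the genes that carry the family name without encoding an E2, Ube2cbp had 1397, 1189, 1239 and 1049 in milrinone samples, against 828, 1081, 992 and 879 in untreated samples. Milrinone 4 lay below untreated 2, so the groups overlapped, and the difference was 0.36 (95% interval 0.05 to 0.67, limma adjusted p = 0.494). Its product is a ubiquitin ligase that binds Ube2c in human cells. Without untreated 1 the difference of Ube2cbp was 0.30 (limma adjusted p = 0.610). The pseudogene transcript Ube2d-ps ranged from 226 to 512 in milrinone and from 183 to 673 in untreated samples and differed by -0.26, with an interval of -1.14 to 0.63.

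Probe sets of a gene agreed in sign in part. Of the 14 genes with several tested probe sets, 7 had differences of 1 sign, namely Ube2a, Ube2d2a, Ube2f, Ube2k, Ube2s, Ube2v1 and Ube2z, and 7 had both signs. The gap between the highest and the lowest difference of a gene ran from 0.02 for Ube2f to 0.50 for Ube2j1, with 0.48 for Ube2k.

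The tested genes around the E2 step also held no call. Of the E1 enzymes and their partners 4 genes with 7 probe sets were tested, and 0 passed (limma), with 1 of 7 at an unadjusted p under 0.05, beside 9.63% of all tested probe sets, and a median difference of 0.01. That one was Sae1, a subunit of the SUMO-activating enzyme, with 430, 364, 409 and 637 in milrinone samples, against 1049, 789, 555 and 522 in untreated samples. Its values overlapped and were highest on untreated 1, and the difference was -0.62 (limma adjusted p = 0.495), while a second probe set of Sae1 differed by 0.10. Atg7, the E1 of autophagy, differed by 0.27 and Uba3, a subunit of the NEDD8-activating enzyme, by -0.20 with the probe set of smallest p. The other tested probe sets of Uba3 differed by -0.07 and 0.07. The remaining tested gene was Nae1, so no E1 enzyme of ubiquitin itself could be tested. Uba1 had no probe set assigned to it alone, and Uba1y and Uba6 were listed on too few arrays. Probe set 1428945_at of Uba6 had 546, 1612, 108 and 88 in untreated samples, and in milrinone samples only 120 on milrinone 4. Its other probe sets were listed on untreated 1 and 2 only or on no array. Of the modifiers 4 genes with 5 probe sets were tested and 0 passed (limma, 0 at an unadjusted p under 0.05), with Ufm1 at 0.25, Fau at -0.08 and Nedd8 at 0.05. Of the E2 genes and E2-like proteins named otherwise, 7 genes with 9 probe sets were tested and 0 passed (limma, 0 at an unadjusted p under 0.05), in a range of -0.10 to 0.12. Among them Cdc34 differed by 0.12, the giant E2 and E3 enzyme gene Birc6 by 0.12, with another of its probe sets at -0.10, and the autophagy E2 gene Atg3 by 0.07.

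No ligase partner passed either. Of the E3 partners 32 genes with 63 probe sets were tested, with a median difference of 0.07. By limma 0 passed, and for 4 of the 63 the unadjusted p was under 0.05, beside 9.63% of all tested probe sets. Rnf20, the H2B ligase that works with Ube2a and Ube2b, had 206, 154, 204 and 165 in milrinone samples, against 104, 122, 112 and 122 in untreated samples with probe set 1419916_at. The milrinone values all lay above the untreated ones, as for 5.06% of all tested probe sets, and the difference was 0.59 (95% interval 0.26 to 0.92, limma adjusted p = 0.354), but the other tested probe sets of Rnf20 differed by 0.15 and -0.06. Nedd4, a HECT ligase, had 473, 429, 265 and 432 in milrinone samples, against 1538, 571, 588 and 612 in untreated samples with probe set 1421955_a_at. It was highest on untreated 1, and the difference was -0.91 (limma adjusted p = 0.472). The other tested probe sets of Nedd4 differed by -1.07 and -0.51. Pias1, a SUMO ligase, differed by 0.34 (limma adjusted p = 0.514) with the probe set of smallest p, and its other tested probe sets differed by -0.03, 0.17 and 0.23.

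Of the enzymes that remove ubiquitin or SUMO, 20 genes with 44 probe sets were tested, with a median difference of 0.09. By limma 0 passed, and for 5 of the 44 the unadjusted p was under 0.05, a share near the 9.63% of all tested probe sets. Usp2, a deubiquitinase, had 5362, 4286, 4598 and 4567 in milrinone samples, against 2550, 2968, 4155 and 2668 in untreated samples with probe set 1417169_at. All 4 milrinone values were above all untreated values, as for 5.06% of all tested probe sets, with a difference of 0.63 (95% interval 0.29 to 0.96, limma adjusted p = 0.303), but the other tested probe set of Usp2 differed by 0.13. Senp6, which removes SUMO, differed by 0.47 (limma adjusted p = 0.460) with one probe set and by -0.19 with another. Usp7, a deubiquitinase of p53 and its ligase Mdm2, differed by 0.39 (limma adjusted p = 0.495) with the probe set of smallest p, and its 5 other tested probe sets differed by -0.33, -0.17, -0.10, 0.07 and 0.33.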

How the data were processed

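Total RNA of 4 milrinone and 4 untreated GV oocyte samples was hybridized as biotinylated cRNA, 1 array per sample, per the labels' protocols. The authors deposited 1 linear intensity per probe set, with its software, scaling and rule for empty cells not stated in the labels or the file. Gene symbols came from the platform annotation, and all 33 E2 symbols matched the RefSeq table by Entrez identifier. Control probe sets were left out of the tests. The deposited scaling was kept and empty cells stayed empty. Intensities were analysed as log2(intensity + 16), and the test covered every probe set of the array with a value on 3 or 4 arrays of both groups. The fit used limma 3.58.1 in R 4.3.3 (lmFit, then eBayes with trend = TRUE), tests were two-sided, and p-values were adjusted over 16288 probe sets by the Benjamini-Hochberg method. The number of arrays limits the precision. The fit was checked on simulated data. Plots were drawn with matplotlib 3.10.9 in Python 3.11.15.

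The members, the gene lists and the tests were chosen with earlier results of these data known. Values on every array are given for the 10 tested genes with the smallest adjusted p, the 5 with the highest mean intensity and 11 genes fixed by name, and up to 3 genes of each pathway list are named by smallest adjusted p.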

Additional observations from a re-analysis of the deposited data

How the results depend on the processing

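No E2 probe set passed under any of the 18 alternatives fitted over the whole array. These changed the pseudocount, the rule on listing, the scaling, the variance trend, array weights or the replicate block, or left out 1 array. The rest of the 20 alternatives kept only part of the E2 probe sets of the reported fit and so could not give a call. The count of all called probe sets, 19 as reported, was 12 when only probe sets listed on all 8 arrays were tested, 54 with ribosomal protein centring, 106 with array weights, and 6 (without milrinone 3) to 65 (without untreated 1) when 1 array was left out, with 8 without milrinone 1 and 7 without milrinone 2. The replicate block gave 13 calls over the array and 0 among the E2 probe sets, with the E2 median still 0.02. The labels do not say that a replicate number marks a shared batch, and over 14391 probe sets the deviations of same-numbered samples correlated at 0.03, -0.20, -0.02 and -0.27, with no sample correlating best with its own number, so the numbers were not taken as pairs. Scaling moved levels as a whole: the median of all tested probe sets became -0.13 with quantile normalization and 0.25 with ribosomal protein centring, shifts of -0.19 and 0.19, and the E2 median moved with it to -0.12 and 0.21, with 9 E2 probe sets positive and 47 negative under quantile normalization and 49 and 7 under ribosomal centring. Without 1 array the E2 median ran from -0.02 to 0.07, with 20 of 53 probe sets positive when untreated 1 was left out. The differences of some named probe sets changed sign. Under quantile normalization Ube2a became -0.0057, Ube2b -0.14, Ube2e3 -0.036, Ube2g1 -0.028, Ube2k (1417186_at) -0.0098, Ube2n -0.037 and Ube2s -0.11; under array weights Ube2b became -0.037, Ube2d2a (1448356_at) -0.0092, Ube2g1 -0.039 and Ube2n -0.046; median centring gave -0.0077 for Ube2g1. Ribosomal centring gave 0.18 for Ube2c, 0.17 for Ube2d3 and 0.18 for Ube2h (1418631_at). Leaving out 1 array in turn gave ranges of -0.068 to 0.11 for Ube2b, -0.093 to 0.092 for Ube2c, -0.061 to 0.010 for Ube2d3, -0.029 to 0.065 for Ube2g1, -0.052 to 0.028 for Ube2h (1418631_at), -0.015 to 0.081 for Ube2k (1417186_at) and -0.17 to 0.16 for Ube2s. In all, 29 of 410 recomputed differences of the 23 named probe sets changed sign and 0 passed the threshold; the cause was not tested. Of the 81 E2 probe sets 25 had too few listed values to be tested, and the median standard error of the others was 0.15.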

Other observations

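Of the 25 E2 probe sets that were not tested, 16 were listed on no array and 9 on some. Untreated 1 listed 8 of these 9, and 4 of them, one each of Ube2d-ps, Ube2g2, Ube2q1 and Ube2v2, were listed on untreated 1 alone. A second probe set of Ube2r2 had 62.2 on milrinone 2, the only milrinone array that listed it, against 86.0, 50.6 and 75.2 on untreated 1 to 3. Over all 81 E2 probe sets the milrinone arrays listed 56 to 59 and the untreated arrays 54 (untreated 4) to 64 (untreated 1).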
